A study of Mus musculus with 18 samples.

Results

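Imprinted genes are expressed mainly from the copy inherited from the mother or mainly from the copy inherited from the father. The counts of 10 of them, H19, Igf2, Meg3, Rian, Mirg, Dlk1, Peg3, Peg10, Mest and Nnat, were examined here out of 51467 genes in the polysome count table. They were found by matching the Ensembl gene identifier of each row to these symbols, and all 10 had a row. The list was selected on measured values in part, since H19 had been seen to be much lower in monosomes of Dgcr8 knockout (KO) cells. H19 is therefore given as a description with no test in any comparison, and the other members are given with no test in the monosome comparison of genotypes. The mouse embryonic stem cells (ESCs) were a wild type (WT) line, V6.5, and a Dgcr8 KO line that had been made earlier. Since each genotype was a single line, the loss of Dgcr8 and other differences between these lines cannot be told apart. All cells grew in medium with serum, LIF and the inhibitors PD0325901 and CHIR99021, and were treated for 2 minutes with cycloheximide at 100 ug/ml to stall ribosomes. For each genotype, 3 lysates were spun through gradients of 10 to 50% sucrose, and monosomes, low polysomes with 2 to 4 ribosomes and high polysomes with 4 or more ribosomes were sequenced by QuantSeq, which counts reads at the 3′ ends of transcripts. That gave 18 libraries in 6 groups of 3.

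At many imprinted loci, a control region that carries DNA methylation from the sperm or the egg sets which parental copy is active. Protein-coding members such as Igf2 and Dlk1 are read from the paternal copy, and long noncoding RNAs (lncRNAs) such as H19 and Meg3 from the maternal copy of the same regions. The counts used here are per gene and do not separate the parental copies. Several of these transcripts also carry microRNA hairpins. DGCR8 is the RNA-binding partner of the nuclease DROSHA and is needed to cut such hairpins out of the primary transcript, so Dgcr8 KO cells lack canonical microRNAs. A microRNA represses messages that match its seed, the bases 2 to 8 of the mature strand.

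By coordinates, 22 microRNA genes with 41 mature strands lay within 6 of the 10 members on the same strand. Mirg held 14 of these genes, Rian 3, Meg3 2 (miR-1906 and miR-770), and H19, Igf2 and Mest 1 each, whereas Dlk1, Peg3, Peg10 and Nnat held none. The 41 strands had 40 different seeds. The sequences below, from RefSeq on GRCm38.p6, are shown because these hosts are the transcripts whose levels are compared, with the seed in capitals. Both strands of the H19 and Igf2 hairpins are printed, then 1 strand from each of Meg3, Rian and Mest, and the pair within Mirg that shares a seed.
miR-675-5p (H19, chr7:142577112-142577133, minus strand): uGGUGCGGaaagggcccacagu
miR-675-3p (H19, chr7:142577078-142577099, minus strand): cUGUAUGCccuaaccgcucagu
miR-483-5p (Igf2, chr7:142654968-142654989, minus strand): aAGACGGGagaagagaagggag
miR-483-3p (Igf2, chr7:142654932-142654952, minus strand): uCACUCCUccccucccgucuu
miR-770-5p (Meg3, chr12:109563710-109563731, plus strand): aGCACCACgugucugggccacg
miR-370-3p (Rian, chr12:109618305-109618326, plus strand): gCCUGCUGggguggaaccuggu
miR-335-5p (Mest, chr6:30741314-30741336, plus strand): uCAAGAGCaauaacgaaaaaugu
miR-453 (Mirg, chr12:109735669-109735692, plus strand): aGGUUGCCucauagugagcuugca
miR-496a-5p (Mirg, chr12:109739132-109739152, plus strand): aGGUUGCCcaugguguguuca

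The miR-453 and miR-496a-5p strands differ outside the seed GGUUGCC, and they were the only strands of the 41 to share one. None of the 41 held AAGUGC, the letters at the seed of the microRNAs that dominate ESCs. Mature microRNAs are not read by QuantSeq, so the values below are those of the host transcripts only.

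Library totals were 1151649 to 4984833 counts, and in each genotype the monosome libraries had the fewest. Levels are given in CPM, the count relative to the scaled library total, and the mean ± SD is over 3 libraries. Because the fractions were each scaled to their own total, a level is a share of the RNA in that fraction, and fewer molecules in a cell and fewer cells with the transcript cannot be told apart. The 10 ESC markers summed to 3480 to 6100 CPM, and each had reads in all 18 libraries. In high polysomes their sums were 5560 to 6100 CPM in WT and 3820 to 4470 CPM in KO cells, without overlap. In monosomes and in low polysomes the ranges of the genotypes overlapped. Dgcr8 kept 38 to 183 reads in the KO libraries and differed between genotypes by −0.56 ± 0.19 (SE) on the log2 scale in monosomes, by −0.45 ± 0.17 in low and by −1.01 ± 0.23 in high polysomes, but reads at its 3′ end do not test a deletion elsewhere in the gene. The library KO low polysome 1 stood apart from the other KO libraries for several members, so the low polysome result of each member is given with and without it. All 10 members passed the filter on low counts (3 CPM in at least 3 libraries), among them Peg10, which passed through its other groups since its KO monosome libraries held 1 or 2 reads each.

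H19 and Igf2 are neighbours on distal chromosome 7 and share enhancers and a control region. H19 (ENSMUSG00000000031, 142575529 to 142578143 of GRCm38, minus strand, lincRNA) stood at 231, 288 and 269 CPM in the WT monosome libraries and at 10, 13.2 and 6.27 CPM in those of Dgcr8 KO cells. In high polysomes it stood at 39.4, 43.2 and 38.9 CPM in WT and 7.94, 11.2 and 8.04 CPM in KO cells. All KO libraries lay below all WT libraries in both fractions. The fitted difference was −4.77 ± 0.62 (log2, SE) in monosomes, a 27.4-fold lower level, and −2.17 ± 0.57 in high polysomes, a 4.51-fold lower level. Without KO low polysome 1, which enters only the spread estimated for the gene, the differences were the same, with SE of 0.24 and 0.22.

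The low polysome libraries split H19 differently. WT libraries held 45.5, 47.4 and 53.9 CPM, KO low polysome 1 held 154 CPM (502 reads), and the other KO libraries held 4.17 and 6.31 CPM (13 and 24 reads). Thus 1 KO library lay above every WT low polysome library and the rest lay far below. With all 3 KO libraries the fitted log2 difference was −1.63 ± 0.48, and without KO low polysome 1 it was −3.19 ± 0.31, a 9.12-fold lower level. With all 3 libraries the value was above 0 in edgeR (0.15) and DESeq2 (0.14). Over the 8 other KO libraries of all fractions, H19 ranged from 4.17 to 13.2 CPM.

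Markers of other cell types were low in every group, and some moved with the genotype in the same monosome libraries as H19. The 10 fibroblast markers of WT monosomes summed to 15.5 to 19.4 CPM and those of KO monosomes to 6.21 to 12.1 CPM. Of the defining collagen genes, Col1a2 and Col3a1 had at most 3 reads in any WT library, whereas Col1a1 had up to 19 and stood at 4.18 ± 1.71 CPM in WT monosomes, from 3 to 9 reads, with 1 read in each KO monosome library. Postn had none in WT. Thy1, Pdgfrb and Fbln2, from the same list, overlapped between the genotypes in monosomes. Thy1 spanned 3.23 to 5.3 CPM across WT libraries and 0.777 to 6.66 CPM across those of KO cells. For Pdgfrb these spans were 2.65 to 4.02 and 1.96 to 2.78 CPM, and for Fbln2 0.645 to 3.54 and 1.11 to 2.35 CPM. The 10 primitive endoderm markers of WT monosomes summed to 22.1 to 31.6 CPM and those of KO monosomes to 6.27 to 12.2 CPM. The highest counts in a WT and a KO monosome library were 22 and 9 reads for Lama1 and 22 and 10 for Col4a1. By the same measure Gata4 (1 and 4) and Pdgfra (2 and 4) went the other way. Gata6, Foxa2 and Hnf4a were at 0 in all 3 KO monosome libraries, but Foxa2 was also at 0 in all 3 of WT. Gata6 had at most 1 read in a WT monosome library and Hnf4a at most 4. The trophectoderm markers ranged over 177 to 208 CPM in WT and, in KO monosomes, over 199 to 221 CPM. The part of these cell types in the H19 difference was not tested.

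Igf2 (ENSMUSG00000048583, chromosome 7, 142650766 to 142666816, minus strand, protein-coding) encodes insulin-like growth factor 2, a growth factor of fetal tissues. Its monosome libraries held 40.9, 33.6 and 24.8 CPM in WT and 8.34, 9.32 and 6.27 CPM in KO cells, a log2 difference of −2.05 ± 0.43. In high polysomes the values were 14, 17.7 and 16.6 CPM in WT against 3.31, 7.77 and 4.37 CPM in KO, again with no overlap. Igf2 fell in KO high polysomes by 1.71 ± 0.44 on the log2 scale (adjusted p = 0.000909). In low polysomes WT libraries held 23.6, 13.9 and 20.8 CPM, and KO libraries 42.4, 8.97 and 8.93 CPM, so that the highest and the lowest values were both KO. The low polysome difference was −0.33 ± 0.31 with all libraries (adjusted p = 0.385), with a sign that turned in edgeR (0.05) and DESeq2 (0.02). Without KO low polysome 1 it was −1.05 ± 0.28 (adjusted p = 0.00163) and passed both thresholds, which were an adjusted p below 0.05 together with a log2 change of more than 1 in size. Ins2, the next gene beside Igf2, had no reads in any library.

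**Figure D1:**
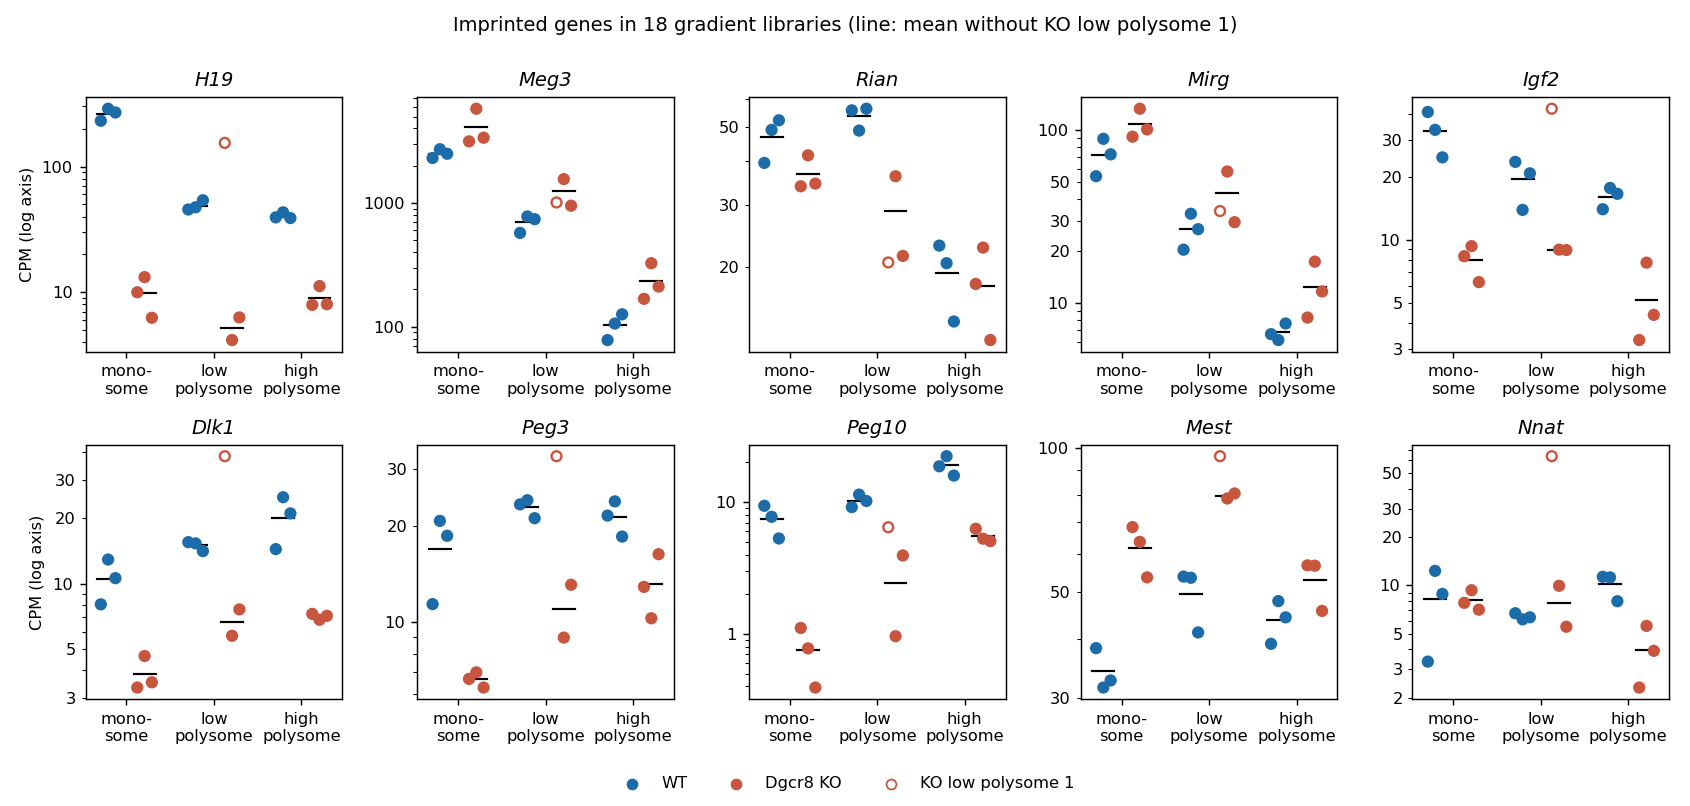
Each panel plots the CPM of 1 member (y axis, log scale) in the monosome, low polysome and high polysome libraries (x axis) of WT and Dgcr8 KO cells, 1 point per library, with a line at the mean that leaves out KO low polysome 1 (open circle). H19 falls from 231 to 288 CPM in WT monosomes to 6.27 to 13.2 CPM in KO monosomes, and the open circle of H19 lies at 154 CPM.

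Meg3, Rian and Mirg are read in the same direction from the maternal copy of the Dlk1 to Dio3 region of chromosome 12, and Dlk1 and Dio3 from the paternal copy. Meg3 (ENSMUSG00000021268, 109541001 to 109571726, plus strand, lincRNA) was higher in KO cells in every fraction, with no overlap of libraries. Among monosome libraries WT held 2310, 2720 and 2500 CPM and KO 3150, 5780 and 3370 CPM. Low polysomes held 573, 778 and 740 CPM in WT and 1010, 1560 and 951 CPM in KO, and high polysomes 78, 106 and 126 CPM in WT and 168, 326 and 211 CPM in KO. Thus the order of the genotypes was the same in each fraction while the level dropped from monosomes to high polysomes. The log2 difference was 0.66 ± 0.18 in monosomes. It was 0.72 ± 0.18 in low polysomes (adjusted p = 0.00113), which did not pass the fold threshold, and 1.15 ± 0.21 in high polysomes (adjusted p = 1.4e-05), where Meg3 rose. Without KO low polysome 1 the low polysome value was 0.81 ± 0.19 (adjusted p = 0.000444). The high polysome difference dropped below the fold threshold with total counts in place of TMM scaling (0.93), without WT gradient 1 (0.96) and without KO gradient 2 (0.93), the KO gradient in which Meg3 was highest in all fractions.

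Mirg (ENSMUSG00000097391, 109729764 to 109749460, plus strand, lincRNA) is the host of the microRNA cluster counted above. Its monosome level was 71.9 ± 17.4 CPM in WT and 108 ± 21.6 CPM in KO cells (log2 difference 0.61 ± 0.20). In low polysomes the levels were 26.7 ± 6.23 and 40.4 ± 15.1 CPM, and the libraries overlapped. In high polysomes they were 6.80 ± 0.772 and 12.5 ± 4.61 CPM, and all KO libraries (8.27 to 17.4 CPM) lay above all WT libraries (6.13 to 7.64 CPM). The fitted log2 differences were 0.52 ± 0.22 in low polysomes (adjusted p = 0.0394) and 0.79 ± 0.37 in high polysomes (adjusted p = 0.0595), and Mirg was called in neither. Without KO low polysome 1 the low polysome value was 0.60 ± 0.23 (adjusted p = 0.0252). Without KO gradient 1 the high polysome difference was 1.01 (adjusted p = 0.0139), past both thresholds.

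Rian (ENSMUSG00000097451, 109603940 to 109661716, plus strand, processed transcript), the host of a group of small nucleolar RNAs, went the other way in low polysomes. WT low polysome libraries held 55.7, 48.8 and 56.3 CPM and KO libraries 20.6, 36.2 and 21.5 CPM, without overlap. Rian fell there by 1.09 ± 0.19 on the log2 scale (adjusted p = 4.11e-06). The fall was 0.96 without KO low polysome 1 and without KO gradient 3 alike, so the fold threshold was missed in both, with adjusted p of 8.05e-05 and 0.000184, and it was 0.95 without KO gradient 1. In monosomes the levels were 46.9 ± 6.59 CPM in WT and 36.6 ± 4.26 CPM in KO, and in high polysomes 19.2 ± 4.65 and 17.6 ± 5.14 CPM (log2 difference −0.15 ± 0.24, 95% interval −0.63 to 0.32, adjusted p = 0.594). Hence the 3 lncRNAs of the region did not share a direction, since Meg3 was higher in KO and Rian lower in low polysomes. The small RNA genes inside these lncRNAs covered 1.73% of the exonic bases of Meg3, 3.32% of Rian and 4.99% of Mirg on the same strand, and reads there were not assigned to either gene.

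Dlk1 (ENSMUSG00000040856, 109452823 to 109463336, plus strand, protein-coding) encodes a transmembrane protein with EGF-like repeats that restrains differentiation in several tissues. WT high polysomes held 14.4, 24.9 and 21 CPM and KO high polysomes 7.27, 6.83 and 7.12 CPM. Dlk1 fell there by 1.47 ± 0.37 on the log2 scale (adjusted p = 0.000763). In monosomes the levels were 10.5 ± 2.44 CPM in WT and 3.84 ± 0.716 CPM in KO (−1.39 ± 0.62). Low polysomes held 15.5, 15.3 and 14.1 CPM in WT and 38.4, 5.77 and 7.62 CPM in KO, and again KO low polysome 1 was the highest of all libraries and the rest of the KO group the lowest. The low polysome difference was −0.34 ± 0.33 (adjusted p = 0.409) with all libraries, positive in edgeR (0.19) and DESeq2 (0.17), and −1.14 ± 0.29 (adjusted p = 0.00117) without KO low polysome 1. Of the neighbours of Dlk1, the thyroid hormone deiodinase Dio3 differed by 0.43 ± 0.15 in low polysomes (adjusted p = 0.0158) and 0.26 ± 0.18 in high polysomes (adjusted p = 0.214), with a low polysome value of 0.54 ± 0.16 without KO low polysome 1, and Rtl1 had at most 1 read in a library.

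Peg10, Peg3, Mest and Nnat are paternally expressed protein-coding genes at separate loci. Peg10 (ENSMUSG00000092035, chromosome 6, 4747306 to 4760517, plus strand) derives from a retrotransposon and is needed for the placenta. It was lower in KO cells in each fraction without overlap. WT libraries held 9.38, 7.74 and 5.3 CPM in monosomes, 9.17, 11.4 and 10.2 CPM in low polysomes and 18.7, 22.3 and 15.9 CPM in high polysomes. KO monosomes held 2, 2 and 1 reads, at or below the floor of 3 counts used here, so the monosome level was at least 4.48-fold lower. KO low polysomes held 6.45, 0.961 and 3.94 CPM and KO high polysomes 6.28, 5.28 and 5.06 CPM. Peg10 fell by 1.71 ± 0.38 in low polysomes (adjusted p = 0.000237) and by 1.76 ± 0.29 in high polysomes (adjusted p = 2.12e-06) on the log2 scale, and without KO low polysome 1 the low polysome value was −2.22 ± 0.48 (adjusted p = 0.00012). Its neighbour Sgce, the gene of epsilon-sarcoglycan, had 0 to 3 reads in each KO monosome and low polysome library, against 3 to 13 in WT, which made its low polysome level at least 3.01-fold lower.

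Peg3 (ENSMUSG00000002265, chromosome 7, 6703892 to 6730431, minus strand) encodes a zinc finger protein. Its monosome level was 16.9 ± 4.86 CPM in WT and 6.64 ± 0.362 CPM in KO cells (log2 difference −1.28 ± 0.42), and 21.2 ± 2.66 and 13.2 ± 3.04 CPM in high polysomes (−0.67 ± 0.27, adjusted p = 0.0299, under the fold threshold). KO low polysome libraries held 32.9, 8.97 and 13.1 CPM around the WT libraries, which held 23.3, 24.0 and 21.1 CPM. The low polysome difference was −0.53 ± 0.25 (adjusted p = 0.0729) and became −1.03 ± 0.25 (adjusted p = 0.000495) without KO low polysome 1. Its neighbour Usp29 had 1 or 2 reads in each KO low polysome library, under the floor, against 6 to 9 in WT, which made its level there at least 2.33-fold lower. Usp29 reached the 3 CPM of the filter only in WT libraries, so it is given with no test. Zim1 had at most 3 reads in any library.

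Mest differed from Peg10 and Peg3 in that its KO libraries lay above those of WT cells in monosomes and low polysomes. Mest (ENSMUSG00000051855, chromosome 6, 30723547 to 30748465, plus strand), which encodes a membrane enzyme of the alpha/beta hydrolase fold, stood in monosomes at 38.2, 31.6 and 32.7 CPM in WT and at 68.4, 63.7 and 53.7 CPM in KO cells. It stood at 53.9, 53.6 and 41.2 CPM in WT and 96.2, 78.5 and 80.4 CPM in KO low polysomes, and the groups did not overlap in either fraction. The log2 differences were 0.83 ± 0.19 in monosomes and 0.78 ± 0.14 in low polysomes (adjusted p = 1.07e-05, under the fold threshold), and 0.69 ± 0.15 without KO low polysome 1. In high polysomes Mest stood at 43.7 ± 4.49 and 53.2 ± 6.42 CPM, with overlap (0.26 ± 0.15, adjusted p = 0.13).

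Nnat (ENSMUSG00000067786, chromosome 2, 157560078 to 157562522, plus strand) encodes neuronatin, a small membrane protein of the endoplasmic reticulum, and lies in an intron of Blcap. KO low polysome libraries held 63.6, 9.93 and 5.52 CPM and WT libraries 6.70, 6.14 and 6.32 CPM, so 1 library set the KO mean. Nnat was called higher in KO low polysomes with all libraries (log2 difference 1.18 ± 0.50, adjusted p = 0.0454), whereas without KO low polysome 1 the difference was 0.17 ± 0.35 (adjusted p = 0.71). In high polysomes WT libraries held 11.3, 11.2 and 7.96 CPM and KO libraries 2.31, 5.59 and 3.91 CPM, from 7 to 31 reads. The high polysome difference of −1.37 had an adjusted p of 0.057 (SE 0.63) with all libraries and of 0.000821 (SE 0.35) without KO low polysome 1, which does not enter that comparison but enters the spread estimated for the gene. Nnat also passed both thresholds there with total counts, edgeR, the compared groups alone and without KO gradient 1 (adjusted p = 0.00872). Blcap differed by 0.56 ± 0.14 in low polysomes and 0.58 ± 0.16 in high polysomes (adjusted p = 0.000738 and 0.00235), and by 0.57 ± 0.15 in low polysomes without KO low polysome 1.

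**Figure D2:**
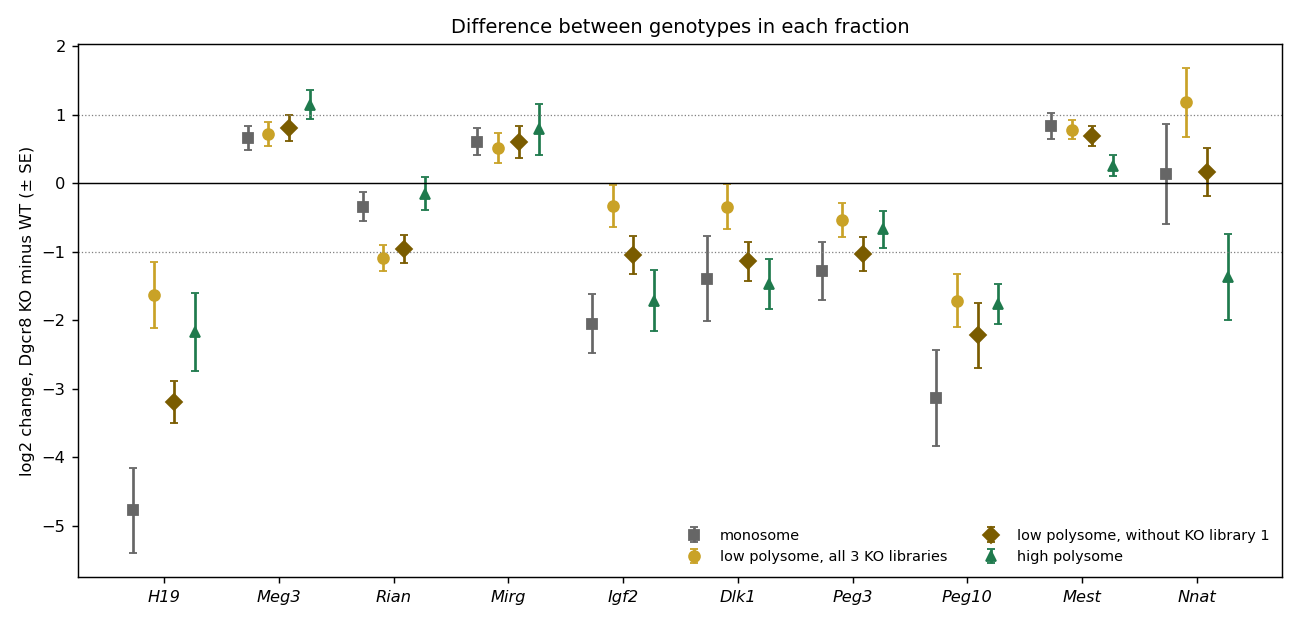
The plot gives the fitted log2 difference of each member between Dgcr8 KO and WT cells (y axis, ± SE) in monosomes, low polysomes with and without KO low polysome 1, and high polysomes, with dotted lines at the fold threshold of 1 (the fitted Peg10 monosome value rests on KO libraries at the floor of 3 counts). The low polysome values of H19 move from −1.63 to −3.19 and those of Nnat from 1.18 to 0.17 when that library is left out, while those of Meg3 and Mest stay between 0.69 and 0.81.

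Calls across all 12851 genes tested give the background for these values. In monosomes the KO libraries of 5 members (H19, Igf2, Dlk1, Peg3 and Peg10) lay below all WT libraries and those of 3 members (Meg3, Mirg and Mest) above them. The fit called 8.43% of all genes higher and 9.63% lower there. These percentages are no background for the member counts, since calls and overlap of libraries are different measures. The share of all genes without overlap is not given. Nothing is read from these counts, since the list was also partly chosen by that contrast. In low polysomes, of the 9 members other than H19, 1 was called higher (Nnat) and 2 lower (Rian and Peg10), beside 11.4% and 13.6% of all genes. Without KO low polysome 1, 0 were called higher and 4 lower (Igf2, Dlk1, Peg3 and Peg10), beside 11.9% and 13.1% of 12813 genes. In high polysomes 1 was called higher (Meg3) and 3 lower (Igf2, Dlk1 and Peg10), beside 15.1% and 17.9% of all genes. The median log2 difference over all genes was 0 in low polysomes, −0.05 in monosomes and −0.08 in high polysomes. The members were chosen with results of these data known, so these counts describe them and no more.

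KO low polysome 1 was examined further, by measures chosen after its values were seen. H19 stood 29.5-fold above the mean of the other KO low polysome libraries in it, Nnat 8.24-fold, Dlk1 5.74-fold, Igf2 4.74-fold, Peg3 2.98-fold and Peg10 2.63-fold. Mest was at 1.21-fold, and the chromosome 12 lncRNAs were at 0.799-fold (Meg3), 0.783-fold (Mirg) and 0.713-fold (Rian). Of all 12851 genes, 1.48% were more than 2-fold higher in this library than in the mean of the other KO low polysome libraries (each with 1 CPM added), against 0.77% for KO low polysome 2 and 0.444% for KO low polysome 3. For 6 members it was so in KO low polysome 1 and for 0 in the others.

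**Figure D3:**
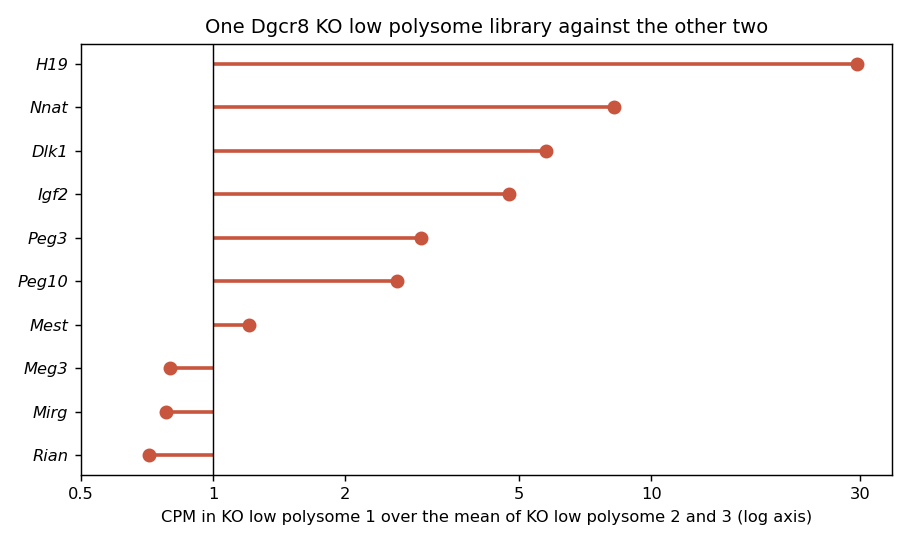
The plot gives, for each member, the CPM in KO low polysome 1 relative to the mean of KO low polysome 2 and 3 (x axis, log scale). H19 is 29.5-fold higher and 5 further members are at least 2.63-fold higher, while Meg3, Mirg and Rian lie between 0.713 and 0.799.

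The same library held reads of genes that were scarce elsewhere. With at least 20 reads and a CPM over 3 times that of every other library, it had 16 genes, and each of the other 17 libraries had 0. The embryonic globins led them, with 1382 reads of Hbb-y, 424 of Hbb-bh1 and 194 of Hba-x, against at most 143, 57 and 22 in any other library. Nnat was also among them, with 207 reads against at most 31. The fibroblast markers summed to 36.6 CPM in KO low polysome 1 with none of the 10 at 0, against 8.97 and 12.3 CPM in the other KO low polysome libraries with 4 and 5 at 0. Of the 10, 6 had more reads in it than in every other KO library, led by Col3a1 with 28, Prrx1 with 17, Col1a1 with 16 and Col1a2 with 13 against at most 3, 1, 6 and 2. The other 4 did not, with 21 reads of Pdgfrb against up to 42, 9 of Thy1 against 21, 8 of Fbln2 against 22 and 2 of Lum against 2. A single gene, Gpx3, had at least 50 CPM in WT low polysomes and at most 2 CPM in each KO monosome and high polysome library, and KO low polysome 1 held 3.66% of its WT low polysome mean, against 3.82% and 3.13% in the other KO low polysome libraries. The part of other cells in the member values of this library was not tested.

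The translation level, the high polysome to monosome ratio within a genotype, was lowest in WT cells for the lncRNAs Meg3, Mirg and H19, while Rian overlapped the coding gene Igf2. In WT cells the log2 ratios of the 3 gradients were −4.87, −4.68 and −4.30 for Meg3, −2.91, −3.72 and −3.16 for Mirg, and −2.53, −2.72 and −2.78 for H19. Rian was less depleted from high polysomes, with −0.78, −1.24 and −1.88. The fitted ratios were −4.62 ± 0.21 for Meg3 (adjusted p = 8.25e-22), −3.34 ± 0.34 for Mirg (adjusted p = 4.9e-11), −1.32 ± 0.23 for Rian (adjusted p = 7.73e-06) and −2.69 ± 0.38 for H19, which is described only. Meg3 lay at the 0.366th, Mirg at the 2.34th, H19 at the 4.44th and Rian at the 16.1th percentile of all genes tested, whose median was −0.01, while the median over all lncRNAs was −2.41. The gradient values of Meg3, Mirg, H19 and Rian did not overlap each other, with the nearest being Mirg at −2.91 and H19 at −2.78.

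Among the coding members in WT cells, Peg10 was the highest, with log2 ratios of 0.86, 1.35 and 1.23 and a fitted value of 1.27 ± 0.37 (adjusted p = 0.00335, 93.7th percentile). Dlk1 followed with 0.90 ± 0.44 (adjusted p = 0.0833). Without KO low polysome 1, which enters only the spread estimated for the gene, Dlk1 was at 0.90 ± 0.29 (adjusted p = 0.00834), under the fold threshold. Nnat (0.43 ± 0.68), Peg3 (0.35 ± 0.32) and Mest (0.35 ± 0.19) had gradient values that overlapped each other. By its fitted value Igf2 was the only coding member below 0 with all libraries, at −1.04 ± 0.34 (adjusted p = 0.00909), and its ratios of −1.51, −0.92 and −0.63 overlapped those of Rian. The Igf2 call was lost without WT gradient 1 (−0.80, adjusted p = 0.132), without WT gradient 2 (−1.03, adjusted p = 0.0546) and without KO gradient 2 (−0.97, adjusted p = 0.0172), and also with total counts (−0.96), without the filter on low counts (−0.93, adjusted p = 0.0511) and in DESeq2 (adjusted p = 0.0907). Of the 9 members other than H19, 1 was called higher in high polysomes and 4 lower, beside 10.7% and 19.3% of all genes.

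In Dgcr8 KO cells Meg3 (−4.13 ± 0.19), Mirg (−3.16 ± 0.25) and Rian (−1.13 ± 0.22) were again lower in high polysomes (adjusted p = 1.63e-21, 1.61e-14 and 1.74e-05). The Rian call was lost without KO gradient 3 (−0.91, adjusted p = 0.00264). Peg10 was again called higher, at 2.64 ± 0.66 (adjusted p = 0.00059), but its KO monosome libraries were at the floor, which makes the high polysome level at least 3.32-fold higher. Peg3 was at 0.96 ± 0.38 (adjusted p = 0.0247), just short of the fold threshold, which it passed without KO gradient 2 (1.19, adjusted p = 0.0197) and in DESeq2 (adjusted p = 0.0117). Nnat was at −1.08 ± 0.68 (adjusted p = 0.155), and without KO low polysome 1 it was called lower (adjusted p = 0.0111). Thus 1 of the 9 members was called higher and 3 lower, beside 17.5% and 25.5% of all genes.

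**Figure D4:**
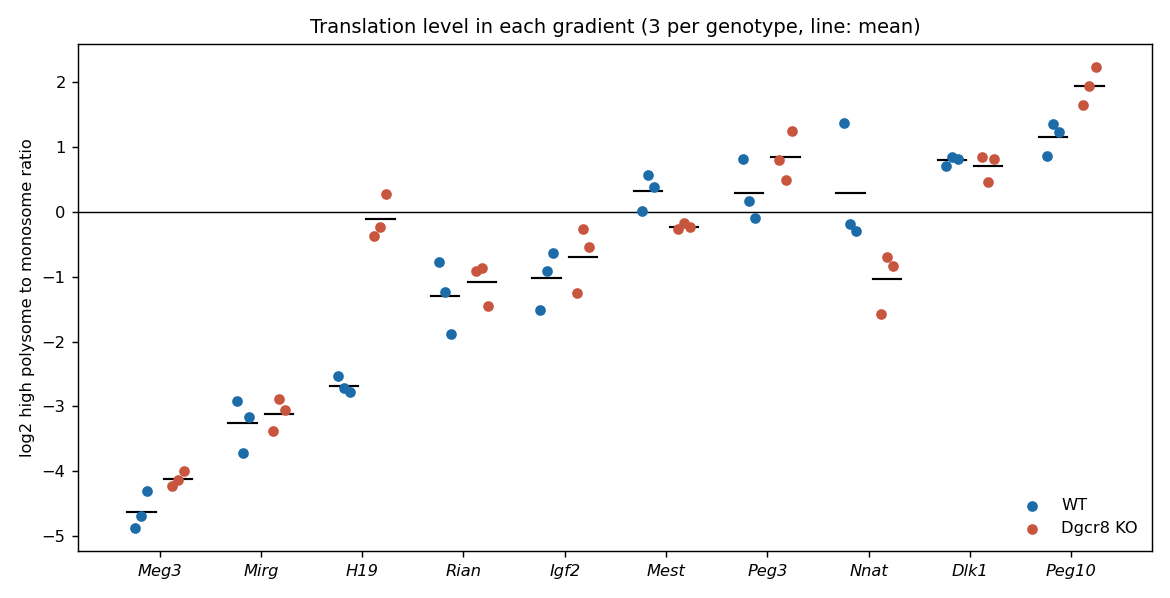
The plot gives the log2 high polysome to monosome ratio (y axis) of each member in each of 3 WT and 3 Dgcr8 KO gradients, with a line at the mean. Meg3 lies at or below −3.99 in all 6 gradients, Peg10 lies above 0 in all 6, and H19 is the only lncRNA whose gradients separate by genotype by more than 2 log2 units.

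The comparison of translation levels between genotypes shares the monosome libraries with the contrast used to choose the list. H19 had gradient values of −2.53, −2.72 and −2.78 in WT and −0.37, −0.24 and 0.27 in KO cells, a fitted difference of 2.60 ± 0.85 on the log2 scale, which is given with no test. The other lncRNAs were not called, with differences of 0.49 ± 0.28 for Meg3 (adjusted p = 0.194), 0.19 ± 0.42 for Mirg (adjusted p = 0.787) and 0.18 ± 0.32 for Rian (adjusted p = 0.716). Their 95% intervals were −0.07 to 1.06, −0.66 to 1.03 and −0.46 to 0.83. The Meg3 gradient values did not overlap, at −4.87, −4.68 and −4.30 in WT and −4.22, −4.14 and −3.99 in KO cells. Over 15 alternatives to the processing the Meg3 difference was 0.16 to 0.65 and was not called. The gradient values of Peg10 and Nnat did not overlap either, and the share of all genes without overlap is not given. Among the coding members Mest had the lowest adjusted p, though its difference was under the fold threshold, with ratios of 0.01, 0.56 and 0.38 in WT and −0.27, −0.17 and −0.24 in KO cells, which do not overlap (−0.57 ± 0.24, adjusted p = 0.0771). Nnat differed by −1.51 ± 0.96 (adjusted p = 0.255) and was called lower without KO low polysome 1 (SE 0.54, adjusted p = 0.0293). Igf2 (0.34 ± 0.61), Dlk1 (−0.07 ± 0.72), Peg3 (0.61 ± 0.50) and Peg10 (1.37 ± 0.76) had adjusted p between 0.181 and 0.956. In limma 0 of the 9 members were called with all libraries, as in edgeR and DESeq2, and 1 (Mest) had an unadjusted p under 0.05, beside 6.29% of genes called higher and 8.81% lower.

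The level in each fraction can also be given as a share of the 3 fraction levels of a gradient. Each level was scaled to its own library, so these shares do not show how the molecules of a gene were spread over the gradient. By this measure Meg3 had 75.9 ± 1.89% in monosomes in WT cells and 74.2 ± 1.27% in KO cells. Mirg had 68.0 ± 1.42% and 67.8 ± 3.59%. H19 had 74.5 ± 1.46% of its summed level in monosomes in WT cells and 27.5 ± 20.4% in KO cells, where gradient 1, with the low polysome library that stood apart, held the lowest share of 5.81% and the highest was 46.2%. For Rian the low polysome share was 44.8 ± 3.12% in WT and 32.0 ± 3.82% in KO cells, with ranges of 41.2 to 47.1% and 28.5 to 36.1%. Peg10 had 51.6 ± 1.96% in WT and 58.2 ± 15.4% in KO high polysomes.

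Other imprinted genes were listed for comparison, 53 in all, of which 34 were tested. Maternally and paternally expressed are the names of preset lists, and the parental copy in use was not measured in these cells. Of these 34, 5 were called higher and 8 lower in the low fraction (12 in all without KO low polysome 1) and 3 higher with 8 lower in the high fraction, with median log2 differences of −0.10 and −0.01. The 15 maternally expressed genes tested had 4 called higher and 2 lower in the low fraction, against 3 of each in the high fraction. The 19 paternally expressed genes tested had 1 called higher and 6 lower in the low fraction, against 0 and 5 in the high fraction. Over all genes 11.4% were called higher and 13.6% lower in the low fraction, and 15.1% and 17.9% in the high fraction. Leaving out KO low polysome 1, the low fraction had 4 and 2 called among the maternally and 1 and 5 among the paternally expressed genes. Those 5, and the 6 called lower with all libraries, include Usp29 and Sgce, which passed the filter on low counts only through WT libraries. The 5 called lower in the high fraction include 1 of these 2 genes. The same holds for the 8 called lower of the 34. Such genes could hardly be called higher, so the counts of lower calls are not read against the percentages over all genes. In the translation level comparison of genotypes 1 of the 34 was called higher and 4 lower, beside 6.29% and 8.81% of all genes.

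Of the maternally expressed genes, Phlda2, which restrains placental growth, fell in KO low polysomes by 1.64 ± 0.21 and in high polysomes by 1.90 ± 0.29 on the log2 scale (adjusted p = 1.61e-08 and 5.37e-07), and by 1.98 ± 0.24 in low polysomes without KO low polysome 1. Commd1 fell in high polysomes, from 81.9 ± 1.63 to 28.2 ± 5.19 CPM (−1.57 ± 0.17, adjusted p = 2.53e-10). The genes that rose in high polysomes were H13, a signal peptide peptidase (1.74 ± 0.15, adjusted p = 6.23e-13), the phospholipid flippase Atp10a (1.53 ± 0.30, adjusted p = 3.08e-05) and Grb10 (1.15 ± 0.22, adjusted p = 2.51e-05), an adaptor that dampens insulin and IGF receptor signals. Grb10 also rose in low polysomes (1.65 ± 0.24, adjusted p = 2.32e-07), where KO low polysome 1 held 98.7 CPM against 38.5 and 42.6 CPM in the other KO libraries, and it stayed called without that library (1.23 ± 0.19, adjusted p = 6.18e-07). The tetraspanin gene Cd81 rose in low polysomes, from 360 ± 84.5 to 894 ± 89.6 CPM (1.34 ± 0.13, adjusted p = 4.84e-11), with the same 1.34 without KO low polysome 1, and its difference of 0.88 in high polysomes was under the fold threshold.

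Of the paternally expressed genes, Snrpn, which encodes a spliceosomal protein and shares its transcript with Snurf so that its counts are uncertain, fell by 1.63 ± 0.16 in low polysomes and 1.88 ± 0.20 in high polysomes (adjusted p = 2.82e-11 and 1.6e-10). Peg12 fell by 1.96 ± 0.38 and 3.17 ± 0.46 (adjusted p = 3.3e-05 and 1.61e-07) and the zinc finger gene Zfp264 by 1.12 ± 0.22 and 1.91 ± 0.43 (adjusted p = 5.37e-05 and 0.000208). Zrsr1, a gene of the splicing factor family of U2AF, fell in high polysomes (by 1.05 ± 0.22, adjusted p = 6.63e-05), with a low polysome value of 0 ± 0.21. Nespas, the antisense transcript of the Gnas locus, fell in low polysomes (by 1 ± 0.22, adjusted p = 0.000179) with a high polysome value of −0.04 ± 0.33. Without KO low polysome 1, the Nespas value was −0.90 and no longer passed the fold threshold, whereas Snrpn (−1.52 ± 0.18), Peg12 (−2.49 ± 0.48) and Zfp264 (−1.10 ± 0.26) were still called in low polysomes.

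Factors that keep imprints and partners of Igf2 were read from lists of 10 and 12 genes. Of the 10 imprint maintenance factors tested, the low fraction had 1 called lower (Dppa3), and the high fraction 1 higher with 1 lower, beside the percentages over all genes just given. When KO low polysome 1 was left out, Hells, a chromatin remodeller needed for DNA methylation, was also called lower in the low fraction (−1.08 ± 0.14, adjusted p = 7.42e-09, against −0.98 ± 0.13 with all libraries), and Dppa3 was at −2.40 ± 0.22. Dppa3, which protects methylation in the zygote, fell by 2.70 ± 0.21 in low polysomes and 3.54 ± 0.26 in high polysomes (adjusted p = 4.51e-14 and 1.03e-14). Its high polysome level was 57.9 ± 3.94 CPM in WT and 4.87 ± 0.828 CPM in KO cells. Trim28, a co-repressor recruited by zinc finger proteins to imprinted control regions, rose in high polysomes, from 447 ± 50.1 to 901 ± 130 CPM (1.01 ± 0.11, adjusted p = 3.46e-10), while in low polysomes it differed by 0.14 ± 0.12 (adjusted p = 0.336). The high polysome value was just past the fold threshold. Total counts in place of TMM scaling shifted the median of all genes by −0.224 in high polysomes, and Trim28 under that scaling is not given.

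Of the 10 IGF2 pathway genes tested, the low fraction had 1 called higher and 1 lower, and the high fraction 3 higher with 1 lower. These counts stand beside 11.4% of all genes called higher and 13.6% lower in the low fraction and 15.1% and 17.9% in the high fraction. Of the 4 IGF binding protein genes listed, Igfbp3 rose by 2.79 ± 0.31 in low and 2.5 ± 0.27 in high polysomes (adjusted p = 7.07e-10 and 1.91e-10) and Igfbp4 fell by 1.53 ± 0.29 and 2.46 ± 0.35 (adjusted p = 3.15e-05 and 1.29e-07). Igfbp4 had 75 reads in KO low polysome 1, at 23.1 CPM, against 5.13 and 7.36 CPM in the other KO libraries, and without that library it fell by 2.12 ± 0.32 there, while Igfbp3 rose by 3.10 ± 0.28. The abundant Igfbp2 stood at 3130 ± 266 CPM in WT and 2910 ± 357 CPM in KO high polysomes (−0.11 ± 0.13, adjusted p = 0.49), and Igfbp5, with 2 to 12 reads in the high polysome libraries, differed by −1.23 ± 0.64 there (adjusted p = 0.0956) and by −0.19 ± 0.61 in low polysomes, or −1.26 ± 0.69 without KO low polysome 1. Igf1r, the receptor that IGF2 binds, rose in high polysomes from 67.1 ± 4.39 to 206 ± 27.8 CPM (1.61 ± 0.14, adjusted p = 1.43e-12), and its translation level rose by 1.44 ± 0.31 (adjusted p = 0.000395). For the change in translation level, 2 of the 10 genes tested were called higher and 0 lower, beside 6.29% and 8.81% of all genes. The receptor substrate gene Irs2 rose in high polysomes (1.21 ± 0.21, adjusted p = 3.3e-06).

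The genes whose profile over 17 libraries, all but KO low polysome 1, was most like that of H19 were Snord13 (Pearson r = 0.947), Slc1a5 (0.943), Tcf25 (0.942), Lss (0.938) and Mta1 (0.938), by log2 CPM. For Meg3 they were Gm47283 (0.983), the nuclear lncRNA Malat1 (0.982), Agtpbp1 (0.98), AI480526 (0.978) and Ccnl1 (0.978). The libraries share gradients and fractions, so these values describe likeness across fractions and genotypes together. Malat1 averaged 1750 CPM in WT and 3370 CPM in KO libraries, and Snord13 averaged 16.7 and 2.47 CPM.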

How the data were processed

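The authors deposited a table of unnormalized read counts for 18 libraries, made by trimming with Cutadapt 1.14, aligning to mm10 with STAR 2.5.3a, keeping reads with a single alignment, and counting on the sense strand with featureCounts 1.5.3 over GENCODE M14 basic exons, with ribosomal RNA genes removed and ERCC sequences added. Reads over more than 1 gene on a strand were lost. Symbols and coordinates came from GENCODE M21 (51274 of 51467 genes matched) and microRNAs from RefSeq.

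Genes with 3 CPM in at least 3 libraries (12851) were scaled with TMM factors (edgeR 4.0.16) and fitted with limma-voom (limma 3.58.1, R 4.3.3), with 1 mean per group over all 18 libraries. Tests had 2 sides, and p-values were adjusted by Benjamini-Hochberg across the whole table tested. Called means an adjusted p below 0.05 with a log2 change of more than 1 in size. limma, the interaction term and the filter follow the study's methods. The 95% intervals come from the same fit, and gradient ratios add a prior count of 2. CPM are relative to the scaled total over the genes tested. ERCC reads (at most 0.00215% of a library) were left out, and 0 columns were unmapped. The script was checked on simulated data.

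Libraries with 1 number in 1 genotype came from the same gradient, and correlations of their deviations from the group means were 0.021 to 0.136. WT and KO libraries share only a number (−0.010 to 0.097), so numbers were not paired across genotypes. The main fit had no block for the gradient either. Its p-values between fractions and for the change in translation level therefore leave out the pairing of fractions within a gradient. Nothing states separate cultures, so p-values measure the spread between these samples. The members and gene lists were chosen with earlier results of these data known. Named from each list were at most the 6 genes with the largest mean change over both polysome fractions among those called in either, with a mean count of at least 20, plus locus neighbours, and the 5 genes most like H19 and Meg3.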

Additional observations from a re-analysis of the deposited data

How the results depend on the processing

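Each member value was recomputed under 15 alternatives per comparison. Of 675 values with a test, 618 kept their sign and their side of the thresholds, 23 lost and 20 gained a call, and 14 changed sign. Of 225 values given as a description, 7 changed sign. In low polysomes edgeR and DESeq2 gave H19 0.15 and 0.14, Igf2 0.047 and 0.019, and Dlk1 0.19 and 0.17 where limma gave values below 0, and without KO gradient 2 or 3 Dlk1 was 0.10 and 0.03 and Igf2, without KO gradient 3, 0.085. Leaving out other libraries gave as the opposite end −1.05 for Igf2 and −1.14 for Dlk1, both without KO low polysome 1. With total counts the change in translation level was −0.15 for Rian and −0.15 for Mirg. Leaving out gradients also gave ranges that crossed 0, at −0.44 to 0.62 for Nnat in monosomes, −0.32 to 0.08 for the H19 ratio in KO, −0.23 to 0.84 for the Nnat ratio in WT, −0.39 to 0.12 for Rian in high polysomes, and for the change in translation level −0.10 to 0.37 for Mirg, −0.12 to 0.45 for Rian and at most 0.061 for Dlk1. H19, and Nnat in monosomes, were not tested, and none of the others had been called. With no fold threshold 6 of the 9 members other than H19 were past the p threshold in low polysomes, in place of 3, and the other imprinted genes called went from 7 to 16 in monosomes, 13 to 20 in low and 11 to 22 in high polysomes, 8 to 16 and 12 to 22 between fractions in WT and KO, and 5 to 8 for the change in translation level. The share of all genes past the p threshold alone is not given, so these larger counts have no background to be read against. Of the 9, 1 was called for the change in translation level with the compared groups alone and 1 without KO low polysome 1, in place of 0. Leaving out gradients gave 0 of the 9 and 3 to 6 other imprinted genes there, and 2 to 4 of the 9 in low polysomes. With a replicate block the calls among the 9 numbered 3 and 5 for the genotypes in low and high polysomes, 5 and 5 between fractions in WT and KO, and 0 for the change in translation level, and only Nnat changed, to −1.36 in high polysomes (adjusted p = 0.0257) and −1.19 between KO fractions (adjusted p = 0.0254). Shares of all genes called with the compared groups alone, without single gradients or with a replicate block are not given. Nor is the share for the change in translation level without KO low polysome 1. These counts of calls therefore have no background to be read against. Total counts shifted the median of all genes by 0.105 in monosomes, −0.224 in high polysomes, −0.25 between KO fractions and −0.329 for the change in translation level. High polysome rises of listed genes near the fold threshold, such as those of Trim28 and Grb10, are not given with total counts. The Nnat call in low polysomes was lost in 10 of 15 alternatives. The cause of these changes was not tested. Low read counts limit Peg10, Dlk1, Nnat and Peg3 in monosomes, where Peg10 had 1 or 2 reads in KO libraries.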
